A study of Mus musculus with 9 samples.

Results

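The keratin genes examined here were the protein-coding mouse genes whose symbol is Krt followed by digits alone. The rule found 49 of the 52609 genes in the tables, of which 6 are keratins of simple epithelia, 18 of stratified epithelia and 24 of hair, nail and root sheath, with Krt222, an atypical member, outside these classes. Transcript levels had been measured by RNA sequencing in 9 libraries of mouse epiblast stem cells, lines derived from the epiblast of the embryo and kept on inactivated embryonic fibroblasts. The medium of all 4 groups held Activin A (20 ng/mL) and FGF2 (10 ng/mL). The control group was a line without modification or inhibitor (n = 2), and Dkk1_KO was a line in which Dkk1 had been knocked out (n = 3). Dkk1 encodes a secreted protein that antagonises Wnt signals. The IWP2 group was held in 5 µM IWP2, an inhibitor of Porcupine, the acyltransferase that Wnt secretion needs (n = 2), and in IWP2_removed the same inhibitor had been withdrawn once the line was derived (n = 2). SB431542, also named in the treatment protocol, is in no label of these groups. Each group is described as a line, so a difference between lines and an effect of the knockout or inhibitor cannot be told apart.

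Keratins are the intermediate filament proteins of epithelial cells. A type I keratin pairs with a type II keratin to build the filament, and Krt18 with Krt8 is the pair found in the first epithelia of the embryo, the trophectoderm among them, and in simple epithelia of the adult. Krt7 (type II) and Krt19 (type I) join that pair in many simple epithelia and in trophoblast, whereas Krt5 with Krt14 and Krt1 with Krt10 are the pairs of basal and differentiating epidermis. Desmosomal proteins and cytolinkers anchor the filaments at cell junctions, and mesenchymal cells build filaments of vimentin instead.

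Levels are TPM (a transcript level scaled for length and for the library's total) summed over the transcripts of a gene, and tests are edgeR quasi-likelihood tests on reads with Benjamini-Hochberg adjustment over the 18096 genes that passed the filter on low counts. A gene was called where its adjusted p was below 0.05. Libraries held 10849490 to 17892751 estimated reads. Dkk1, the targeted gene, stood at 2.36 and 2.64 TPM in the control libraries, 0.190, 0.228 and 0.309 TPM in Dkk1_KO, 0.945 and 0.0930 TPM in IWP2, and 1.07 and 1.69 TPM in IWP2_removed. Its fall in Dkk1_KO was called (-3.13 ± 0.68 on the log2 scale with its SE, adjusted p = 0.00597, edgeR), but not with the Dkk1_KO libraries averaged to 1 (0.129). The labels do not say that replicate libraries came from separate cultures, so p-values may measure technical spread alone. Chi-square per degree of freedom between replicates, near 1 where counting error alone acts, was 30.6 between control libraries, 90.7 in IWP2, 36.8 in IWP2_removed and only 1.76 to 2.21 in Dkk1_KO, and calls of named genes in Dkk1_KO that are lost with those libraries averaged to 1 are stated beside them. The 8 epiblast markers, which stand for the labelled cell type, did not move together in Dkk1_KO. Pou5f1, a defining factor of the epiblast, lay at 0.971 to 1.58 TPM against 403 to 460 TPM in control, and Nanog, Fgf5, Otx2 and Tdgf1 were lower too. Sox2 was at a mean of 32.2 TPM against 42.9 TPM and was not called (adjusted p = 0.588), while Dnmt3b (78.0 against 30.1 TPM) and Pou3f1 (13.6 against 2.76 TPM) were higher, Pou3f1 not with the libraries averaged (0.0739).

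Few keratin genes were transcribed at any height. Of the 49 genes 41 stayed below 1 TPM in every group mean, and 5 (Krt24, Krt32, Krt72, Krt73 and Krt82) had no read in any library. The 8 that reached 1 TPM in a group were Krt7, Krt8, Krt18, Krt19 and Krt20 of simple epithelia and Krt10, Krt13 and Krt79 of stratified epithelia. Only 14 members passed the filter on low counts. The other 35 held at most 62 reads over the 9 libraries. They include Krt23, the sixth simple keratin, with 1 read in all, and Krt6a, Krt6b, Krt33a and Krt33b, which fall outside the rule by their letter, summed to at most 0.252 TPM in a library.

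The keratin transcripts of Dkk1_KO were almost all of the simple-epithelial class and far more abundant than in the other groups. Summed keratin TPM was 41.7 and 61.2 in the control libraries, 933, 966 and 956 in Dkk1_KO, 28.9 and 20.5 in IWP2, and 23.4 and 38.3 in IWP2_removed. The Dkk1_KO libraries stood apart from all others, at a ratio of group means of 18.5 to control. Simple keratins made up 67.6% and 91.0% of the summed TPM in control, 99.3% to 99.5% in Dkk1_KO, 75.7% and 68.6% in IWP2, and 70.4% and 79.9% in IWP2_removed. Stratified keratins together had 12.5 and 4.94 TPM in control and 3.57, 5.62 and 3.97 TPM in Dkk1_KO, so that this class did not rise in sum. The value of 12.5 held 6.48 TPM of Krt13, a keratin of internal stratified epithelia, which rested on 3 reads, 1 of them on Krt13-203, its shortest transcript. Without that read control replicate 1 summed to 35.5 TPM, between the 2 IWP2_removed libraries, the control mean of all keratins was 48.3 TPM in place of 51.4 ± 13.8 (SD, n = 2), and the mean simple share 85.2% in place of 79.3%. As a share of all reads the keratins held 0.00575% and 0.0125% in control, 0.199% to 0.205% in Dkk1_KO, 0.00544% and 0.00393% in IWP2, and 0.00454% and 0.00759% in IWP2_removed.

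**Figure D1:**
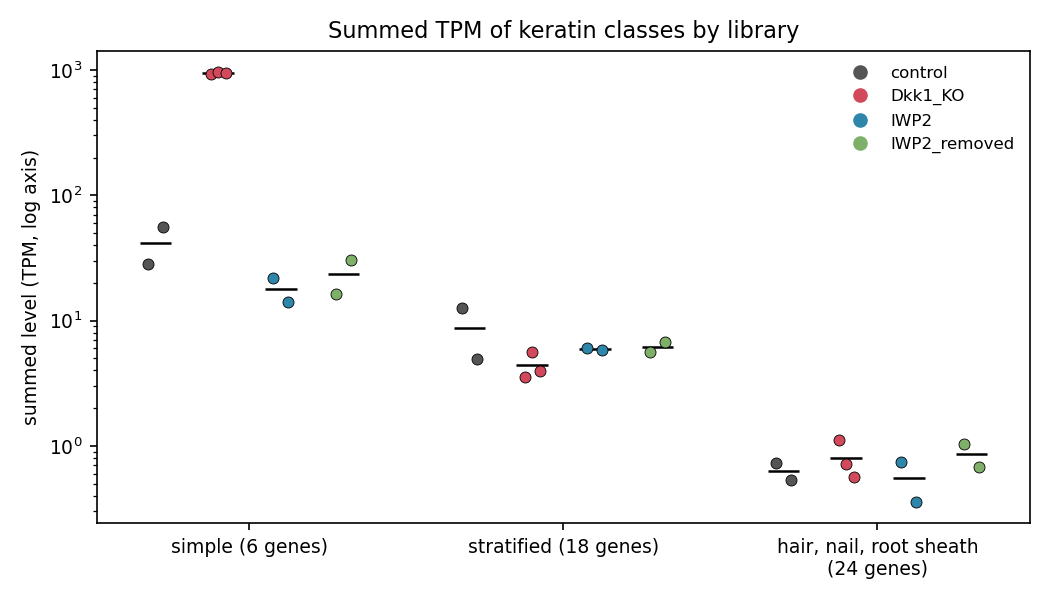
Summed TPM of the 3 keratin classes (log axis), 1 point per library and 1 horizontal line per group mean. The simple keratins of the 3 Dkk1_KO libraries sit at 928 to 959 TPM, while the stratified class overlaps between groups.

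Krt18 and Krt8, the obligate partners of simple-epithelial filaments, were the most abundant members. Krt18 (ENSMUSG00000023043.7, chr15:102028180-102032027, plus strand, GRCm38) was at 13.2 and 28 TPM in control, 543, 560 and 557 TPM in Dkk1_KO, 12.4 and 9.79 TPM in IWP2, and 7.47 and 16.9 TPM in IWP2_removed. Krt8 (ENSMUSG00000049382.10, chr15:101996698-102004482, minus strand) was at 6.49 and 15 TPM in control, 250, 257 and 255 TPM in Dkk1_KO, 3.91 and 1.80 TPM in IWP2, and 3.97 and 7.88 TPM in IWP2_removed. For both genes the Dkk1_KO libraries were far above every other library, and the control libraries overlapped those of IWP2_removed. On the log2 scale Krt18 rose in Dkk1_KO by 4.93 ± 0.51 (SE; adjusted p = 0.000122, edgeR) and Krt8 by 4.74 ± 0.53 (0.000186).

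Krt7 and Krt19, the further keratins of simple epithelia and trophoblast, also rose, Krt7 from a low base. Krt7 (ENSMUSG00000023039.17, chr15:101411043-101430313, plus strand) was at 0.602 and 0.573 TPM in control, 77.5, 77.8 and 78.8 TPM in Dkk1_KO, 0.192 and 0.0936 TPM in IWP2, and 0.569 and 0.780 TPM in IWP2_removed. Its log2 fold change of 6.24 ± 0.24 (adjusted p = 1.23e-06, edgeR) was the largest among the 5 simple keratins tested. Krt19 (ENSMUSG00000020911.14, chr11:100140810-100148665, minus strand), a keratin without the usual tail domain, was at 7.40 and 11.6 TPM in control, 56.8, 62.7 and 59.1 TPM in Dkk1_KO, 5.06 and 2.06 TPM in IWP2, and 3.63 and 4.59 TPM in IWP2_removed. It rose by 3.02 ± 0.48 (adjusted p = 0.00117). Krt20, a keratin of intestinal and urothelial surface cells, stayed near 1 TPM, at 0.484 and 0.477 TPM in control against 0.914, 1.13 and 1 TPM in Dkk1_KO. Its call (1.30 ± 0.39, adjusted p = 0.025) was lost when any control or Dkk1_KO library was left out (adjusted p of 0.053 to 0.108), with the Dkk1_KO libraries averaged to 1 (0.218) and with a replicate block (0.0618).

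Of the 5 simple keratins tested 5 were thus higher in Dkk1_KO than in control and 0 lower, with a median log2 fold change of 4.74, against -0.03 over all genes. In this comparison 21.3% of all genes tested were called higher and 23.0% lower. The calls of Krt7, Krt8, Krt18 and Krt19 held under all 16 alternatives run, among them the Dkk1_KO libraries averaged to 1, where 4 of 5 simple keratins were higher beside 7.15% of all genes higher and 7.22% lower.

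**Figure D2:**
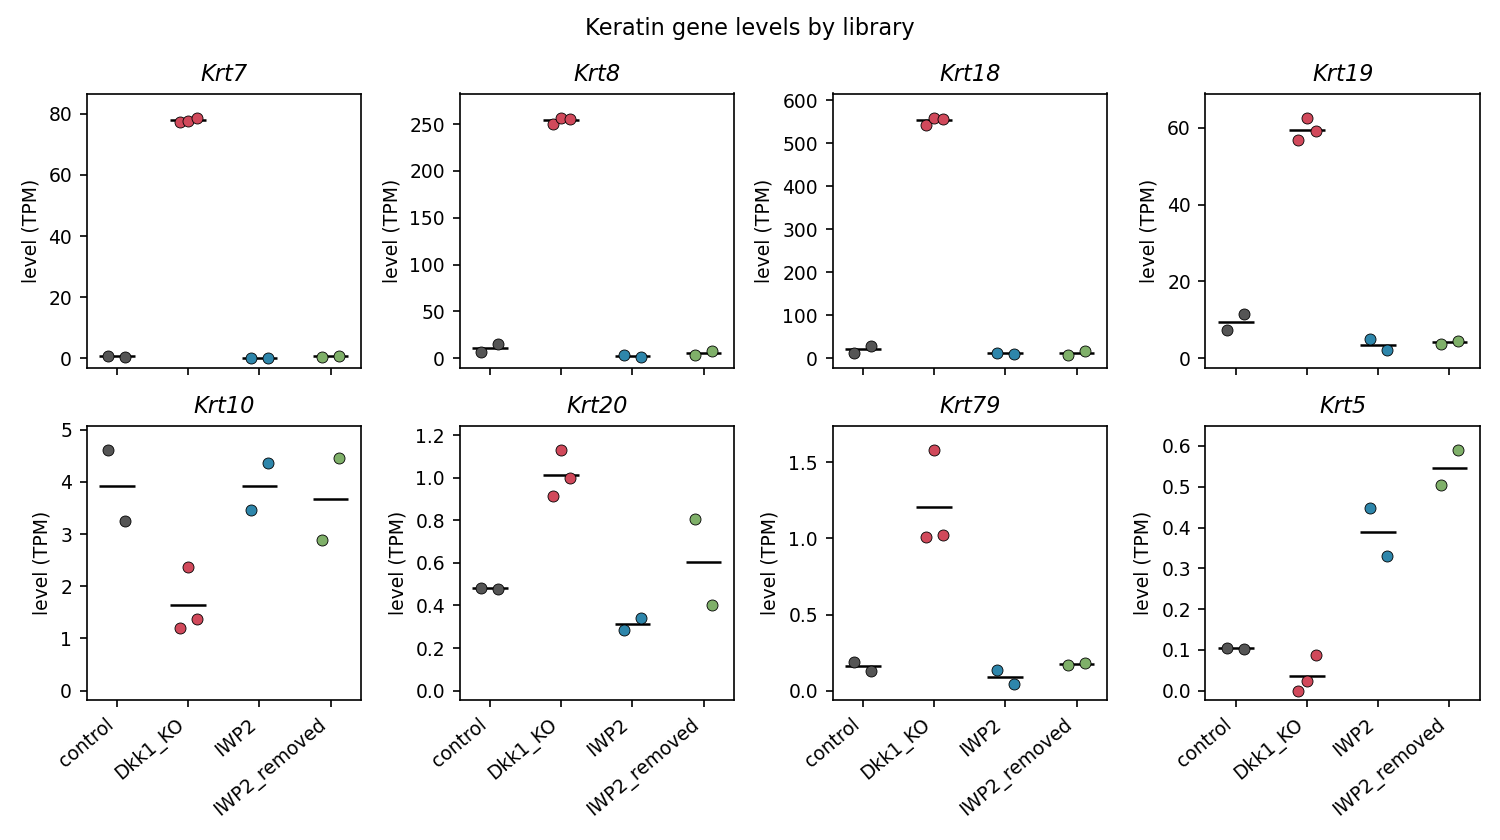
Level in TPM of 8 keratin genes in each of 9 libraries, 1 point per library and 1 line per group mean, with a linear axis for each gene. Krt7, Krt8, Krt18 and Krt19 are high in the 3 Dkk1_KO libraries alone, Krt10 is lowest there, and Krt5 is highest in IWP2 and IWP2_removed, at no more than 0.590 TPM.

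The balance among the simple keratins differed between groups as well. The ratio of Krt18 to Krt8 in TPM was 2.04 and 1.87 in control, 2.17, 2.18 and 2.18 in Dkk1_KO, and 1.88 and 2.15 in IWP2_removed, so the pair kept nearly the same proportion across a wide range of levels in these 3 groups. In IWP2 the ratio was 3.18 and 5.45, above all 7 other libraries, on 169 and 91 reads of Krt8 and 373 and 345 reads of Krt18. This difference was seen after the values were known and was not tested. Krt7 relative to Krt8 was 0.0928 and 0.0383 in control and 0.302 to 0.310 in Dkk1_KO, while Krt19 relative to Krt18 was 0.560 and 0.414 in control and 0.105 to 0.112 in Dkk1_KO. Summed type I over type II simple keratins stood at 2.97 and 2.58 in control, 1.84 to 1.86 in Dkk1_KO, 4.33 and 6.46 in IWP2, and 2.62 and 2.53 in IWP2_removed.

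The stratified keratins that were called differed in direction. Of 7 tested in Dkk1_KO against control 5 passed the filter on low counts also without the Dkk1_KO libraries. Of these 0 were higher, 2 lower and 3 not called, at a median log2 fold change of -1.22. Among all genes that passed without Dkk1_KO 18.7% were higher and 24.2% lower, and 5 genes are too few to set apart from those shares. The other 2 stratified keratins tested, Krt79 and Krt14, passed the filter through Dkk1_KO alone. They are high in that group, so that a difference was built into their being tested. Krt10 (ENSMUSG00000019761.10, chr11:99385254-99389364, minus strand), the type I keratin of suprabasal epidermis, was at 4.61 and 3.25 TPM in control and 1.21, 2.37 and 1.37 TPM in Dkk1_KO, where it fell (-1.64 ± 0.27, adjusted p = 0.00145, edgeR). It was no longer called with the Dkk1_KO libraries averaged to 1 (adjusted p = 0.0656, the highest of its 16 alternatives, of which the lowest was 2.86e-05). In IWP2 it was at 3.47 and 4.36 TPM and in IWP2_removed at 2.88 and 4.46 TPM, within the range of control or close to it. Its partner Krt1 had 4 and 9 reads in control and 0, 1 and 0 in Dkk1_KO, a ratio per library total of 0.0465 (exact 95% interval 0.00109 to 0.31, counting error only). Krt1 was called lower (adjusted p = 0.0135), but not without control replicate 2 (0.086), with the Dkk1_KO libraries averaged (0.0925) or on reads of protein-coding transcripts alone (0.0513).

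Krt79, a keratin of hair follicle canal and sebaceous duct, rose. It was at 0.189 and 0.130 TPM in control against 1.01, 1.58 and 1.02 TPM in Dkk1_KO (3.17 ± 0.51, adjusted p = 0.00135, edgeR; 5.71e-05 with no filter), with 3 reads in each control library and 25.6 to 32 in Dkk1_KO. Krt14, the type I keratin of basal epidermis, had 0 reads in both control libraries and 8, 9 and 11.2 in Dkk1_KO, at least 6.14-fold higher against a floor of 3 reads over the control group (adjusted p = 0.00636, and 0.000978 with no filter). Krt14 did not pass the filter, and so has no value, with the Dkk1_KO libraries averaged, without Dkk1_KO replicate 2 or 3, and on protein-coding reads. All 8 reads of Dkk1_KO replicate 1 were assigned to the processed transcript Krt14-202. These reads are uncertain, since Krt14 transcripts match Krt16 and Krt17 at 87.0% and 89.1% identity, and Krt16 had 4, 6 and 11.2 reads in the same libraries. Pooled over the 3 genes the ratio of Dkk1_KO to control per library total was 8.76 (exact 95% interval 3.24 to 33.2, counting error only). Its partner Krt5, at 3 and 5 reads in control and 0, 1 and 4 in Dkk1_KO, was not called (-1.22 ± 0.87, adjusted p = 0.289). Krt15 (-0.04 ± 0.53, 0.963) and Krt80 (0.46 ± 0.57, 0.548) were not called either.

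Of the 24 keratins of hair, nail and root sheath 23 were not tested. Krt87, a type II hair keratin, had 1 and 1 reads in control, 17, 17 and 15 in Dkk1_KO, 0 and 0 in IWP2, and 2 and 0 in IWP2_removed, a ratio of Dkk1_KO to control per library total of 14.8 (exact 95% interval 3.89 to 126, counting error only). Krt87 transcripts match Krt81, Krt83, Krt86 and Gm49425 at 94.0% to 96.0% identity, and Krt83 had 2 and 3 reads in control and 0 in Dkk1_KO. Pooled over these 5 genes the ratio was 3.70 (1.74 to 9.05), so the size for Krt87 alone is uncertain. Krt87 too passed the filter through Dkk1_KO alone. It was called higher (adjusted p = 0.00566, edgeR; 0.000431 with no filter), but not without control replicate 2 (0.0562) or with the Dkk1_KO libraries averaged (0.103). Krt87 lies on the minus strand from 101431038 to 101438804 of chromosome 15 and ends next to Krt7, whose last base is 101430313 on the plus strand. The sources used here do not say whether the counting used strand, so reads past the end of Krt7 and reads of Krt87 cannot be told apart. Krt222 was not called (-1.49 ± 0.69, adjusted p = 0.112). Of the 14 members tested 8 were higher, 2 lower and 4 not called, where 44.3% of all genes tested were called in either direction. Of the 11 members that passed the filter also without the Dkk1_KO libraries 5 were higher, 2 lower and 4 not called, against 18.7% higher and 24.2% lower, 42.9% in all, among the 17177 such genes. With the Dkk1_KO libraries averaged to 1, 5 of 14 members tested were higher and 0 lower, and 14.4% of all genes were called.

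**Figure D3:**
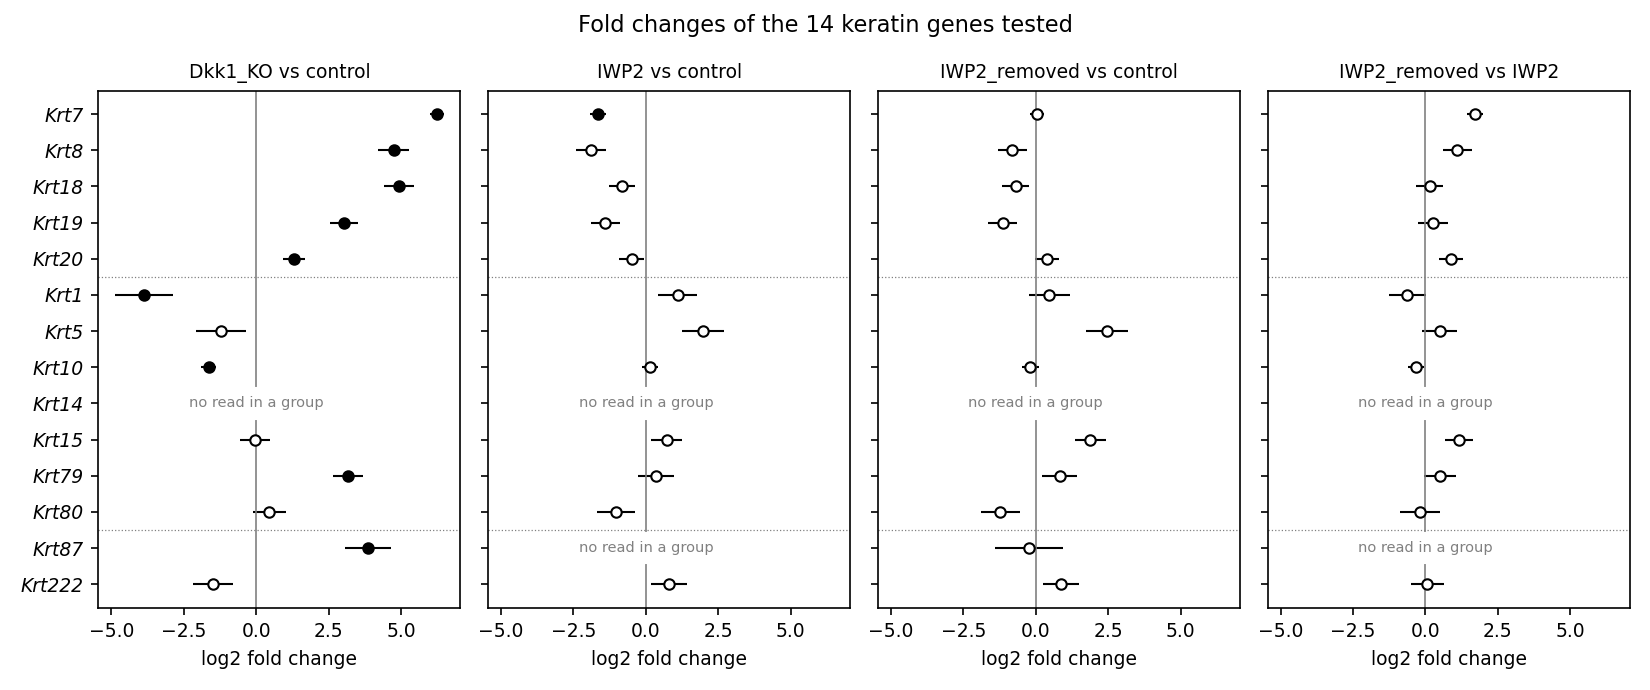
Log2 fold change with its SE for the 14 keratin genes tested, in 4 comparisons on a common axis. Filled points were called (adjusted p below 0.05), open points were not, dotted lines part the simple, stratified and remaining keratins, and genes without a read in a group have no point. The 5 simple keratins are right of 0 in Dkk1_KO against control, and Krt7 at -1.65 is the 1 filled point in the other comparisons.

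The transcripts that held the Krt7 and Krt19 reads bear on their levels. Krt8, Krt18 and Krt20 have 1 annotated transcript each, Krt19 has 3 and Krt7 has 5. In Dkk1_KO 69.2% to 73.0% of Krt7 reads were assigned to Krt7-202, a retained-intron transcript of 3563 bases, 10.2% to 13.5% to the protein-coding Krt7-201 of 4094 bases, and 16.7% to 17.8% to Krt7-204, a protein-coding transcript of 642 bases. In control Krt7-201 held 59.6% and 51.5% of 25.1 and 44.1 reads, and Krt7-204 held none. Since TPM divides by length, the short Krt7-204 contributed 48.2 to 49.9 of the 77.5 to 78.8 TPM of Krt7 in Dkk1_KO. The rise of Krt7 was called on reads of protein-coding transcripts alone too. Krt19 reads in Dkk1_KO were 60.8% to 67.1% on the protein-coding Krt19-201 and 32.2% to 37.0% on the processed transcript Krt19-203.

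**Figure D4:**
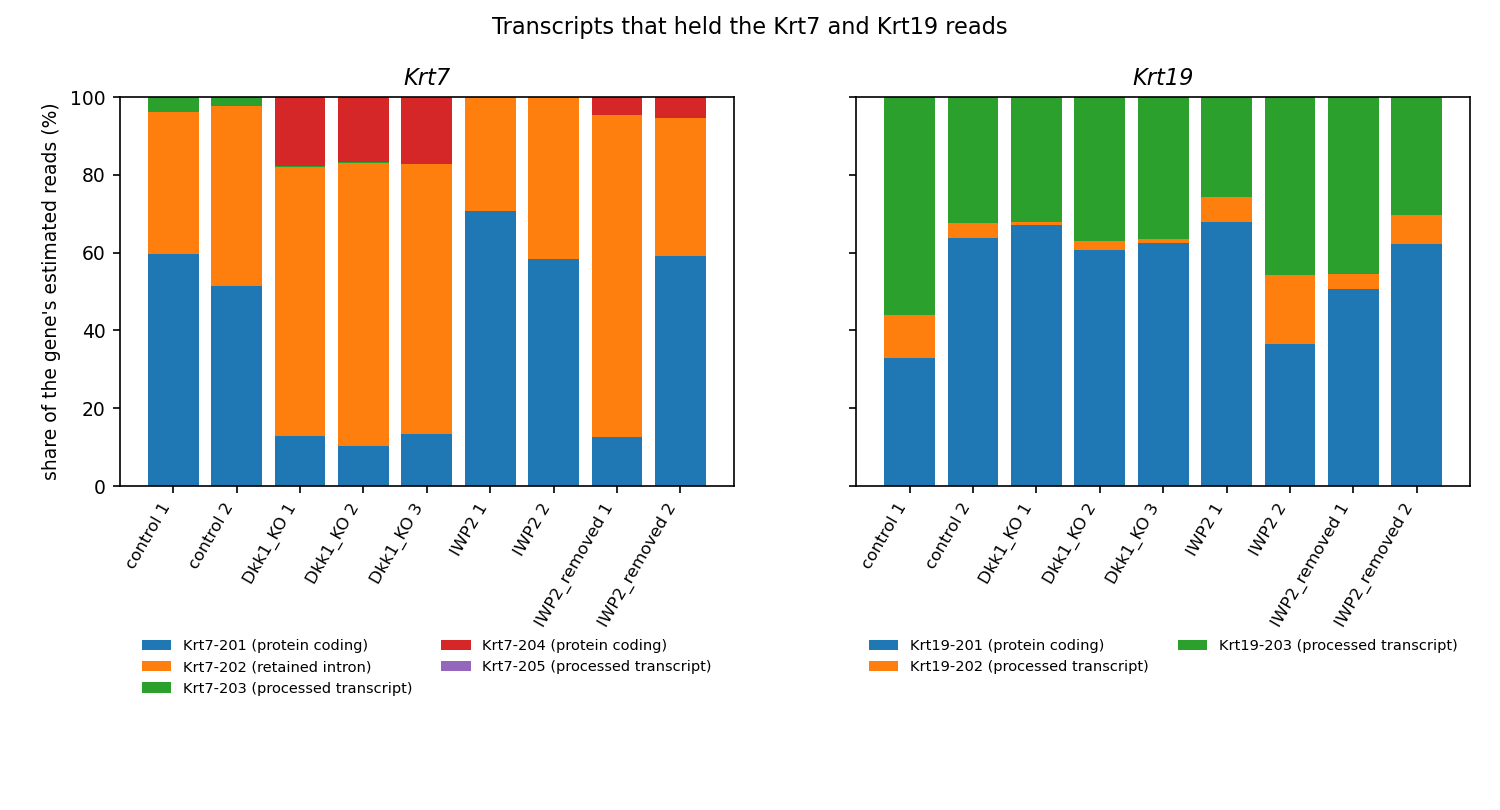
Share of the estimated reads of Krt7 and Krt19 assigned to each annotated transcript, 1 stacked bar per library. In the 3 Dkk1_KO libraries the retained-intron transcript Krt7-202 holds 69.2% to 73.0% of Krt7 reads, and Krt7-204 holds 16.7% to 17.8%.

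Near-identical sequence elsewhere took few reads from the abundant members. At 85% identity over 300 bases or more, Krt18 had 2 processed pseudogenes with 0 reads in every library, and Krt8 had Krt8-ps with 1.8 reads in Dkk1_KO, beside 30399 reads of Krt8 itself. No such match was found for Krt7 or Krt19. The non-coding gene Gm36026 overlaps the start of Krt8 on the opposite strand and was at 0.0867 TPM in control and 0.152 TPM in Dkk1_KO.

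The keratin genes lie in clusters, 25 of them over 1037 kb of chromosome 11 and 24 over 685 kb of chromosome 15, where the type I gene Krt18 sits 23.7 kb from Krt8 at the edge of the type II cluster. Of the tested genes within 100 kb of this pair Krt79 had a log2 fold change of 3.17 ± 0.51 in Dkk1_KO, Tns2, a focal adhesion protein, 1.37 ± 0.19 (adjusted p = 0.000594, edgeR), Spryd3 0.86 ± 0.17 (0.00421, and 0.0997 with the Dkk1_KO libraries averaged) and Eif4b, a translation initiation factor, 0.29 ± 0.21 (0.3, not called). The keratin neighbours Krt4 and Krt78 stayed at or below 0.0296 TPM in both group means.

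The start regions of the chromosome 15 simple keratins that rose together are shown because Krt8 and Krt18 are neighbours that face away from each other and Krt7 lies at the other end of the cluster. The windows are from RefSeq (GRCm38.p6), run 5′ to 3′ on the gene's strand from 250 bases before the RefSeq start to 30 bases after it, and carry motif matches in capitals. They are chr15:101412153-101412432 for Krt7 (plus strand), chr15:102004313-102004592 for Krt8 (minus strand) and chr15:102027966-102028245 for Krt18 (plus strand).
Krt7: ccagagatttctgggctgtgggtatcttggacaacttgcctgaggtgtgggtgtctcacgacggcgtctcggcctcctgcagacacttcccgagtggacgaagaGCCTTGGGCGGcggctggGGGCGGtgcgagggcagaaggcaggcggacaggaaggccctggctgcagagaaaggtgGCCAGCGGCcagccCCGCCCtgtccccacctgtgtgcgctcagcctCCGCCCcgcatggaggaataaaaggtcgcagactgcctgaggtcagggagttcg
Krt8: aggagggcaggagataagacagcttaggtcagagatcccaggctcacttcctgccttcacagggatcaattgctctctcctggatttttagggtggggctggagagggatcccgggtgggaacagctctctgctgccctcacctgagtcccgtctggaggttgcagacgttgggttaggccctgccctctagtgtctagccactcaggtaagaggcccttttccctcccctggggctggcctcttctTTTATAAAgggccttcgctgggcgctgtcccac
Krt18: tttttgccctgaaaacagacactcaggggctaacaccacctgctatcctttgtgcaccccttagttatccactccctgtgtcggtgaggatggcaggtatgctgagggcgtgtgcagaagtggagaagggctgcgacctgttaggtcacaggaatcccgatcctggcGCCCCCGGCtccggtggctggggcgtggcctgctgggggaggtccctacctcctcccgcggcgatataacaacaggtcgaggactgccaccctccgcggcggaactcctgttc
Motifs were searched as letters on both strands, with the first base of the start counted as 1 and the base before it as -1. The RefSeq starts lie inside the gene spans given above, so the positions hold for the RefSeq start alone. Krt7 held 4 matches of the GC box GGGCGG, starting at -141, -128, -56 and -24, and 2 of the AP-2 motif GCCNNNGGC at -146 and -70, of which the first overlaps the GC box at -141. Krt8 held TATAAA on both strands at -3 and -1, in overlapping letters, and Krt18 held 1 AP-2 motif at -83. The windows also differ in base composition, with a GC content of 65.7% in Krt7, 58.6% in Krt8 and 61.4% in Krt18. Of the 49 keratin genes 35 had a window, 36 windows in all. TATAAA occurred in 50% of keratin windows and 13.1% of all 32851 windows, GGGCGG in 5.56% and 34.7%, and GCCNNNGGC in 19.4% and 15.4%. The AP-1 motif TGANTCA was in 5.56% of keratin windows and 7.46% of all windows, the ETS letters CCGGAA in 2.78% and 14.2%, the TEAD letters GGAATG in 8.33% and 13.9%, and the Grainyhead-like motif AACCNGTT in 0% and 1.95%. None of these last 4 motifs matched in the 3 windows shown. These are matches of letters, not binding sites.

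Vim, Nes and Ina fell in Dkk1_KO while Krt7, Krt8, Krt18 and Krt19 rose. Of 11 tested cytoplasmic filament genes other than keratins 6 were lower and 1 higher (Sync, named after its value was seen), with a median log2 fold change of -1.44. Over all genes tested 23.0% were called lower and 21.3% higher. Vim, the filament of mesenchymal cells, was at 863 to 1170 TPM in control and 299 to 330 TPM in Dkk1_KO (-1.44 ± 0.20, adjusted p = 0.000627, edgeR, and 0.0508 with the Dkk1_KO libraries averaged to 1). With them averaged 4 of the 11 were lower and 1 higher. Nes, of neural progenitors, fell too (-2.64 ± 0.32), as did Ina, a neuronal filament gene (-5.10 ± 0.33), while Des, of muscle, was not called (0.83 ± 0.44, 0.156). The nuclear lamins Lmna, Lmnb1 and Lmnb2 had 0 of 3 called in Dkk1_KO (0.44, 0.05 and -0.25). The summed keratin level relative to Vim was 0.0357 and 0.0709 in control, 2.93 to 3.12 in Dkk1_KO, 0.0260 and 0.0304 in IWP2, and 0.0207 and 0.0550 in IWP2_removed, so keratin transcripts exceeded Vim in the Dkk1_KO libraries alone.

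**Figure D5:**
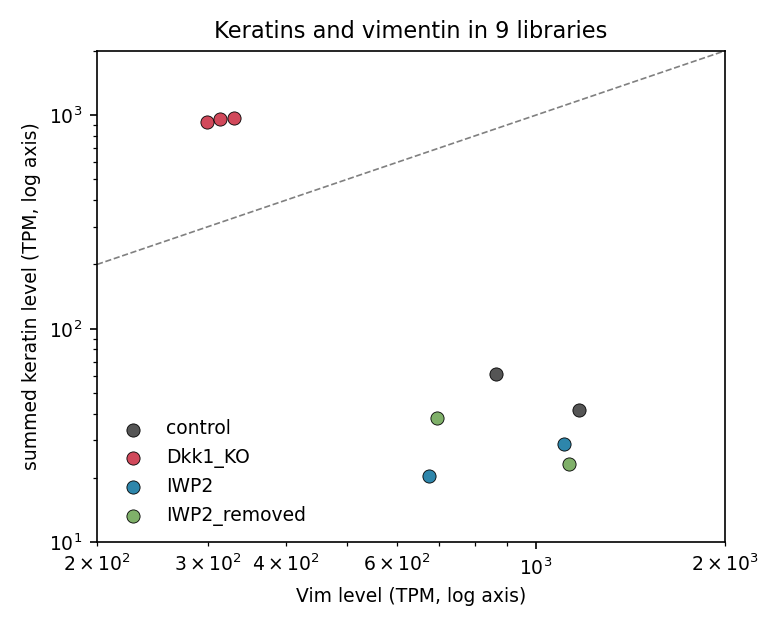
Summed keratin TPM against Vim TPM in the 9 libraries, both on log axes, with a dashed line where they are equal. The 3 Dkk1_KO libraries lie above the line at ratios of 2.93 to 3.12, and the other 6 lie below it at 0.0207 to 0.0709.

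Genes that anchor keratin filaments had 15 tested in Dkk1_KO, of which Pkp3 passed the filter through that group alone. Of the other 14, 11 were higher and 0 lower, at a median of 1.70 on the log2 scale. Among all genes that passed without Dkk1_KO 18.7% were higher and 24.2% lower. All 15 together had 12 higher and 0 lower, at a median of 1.82, where 21.3% of all genes tested were higher and 23.0% lower. With the Dkk1_KO libraries averaged to 1 fewer of the 15 were called, as over all genes. Their median in that fit was 1.84, against -0.04 over all genes tested. Jup, the plakoglobin of desmosomes, was at 19.0 to 27.7 TPM in control and 81.2 to 94.9 TPM in Dkk1_KO (2.36 ± 0.26, adjusted p = 0.000179, edgeR). Perp, a desmosomal membrane protein, was at 12.9 to 39.4 TPM and 74.6 to 76.6 TPM (1.82 ± 0.64, 0.047), and the plakophilin Pkp4 changed little in size (0.62 ± 0.10, 0.00148), neither of them called when averaged (0.211 and 0.0801). The integrin subunit Itga6 was not called (0.23 ± 0.26, 0.504). Cornified envelope genes, the products of terminally differentiated epidermis, had 5 of 10 tested, 1 higher and 1 lower. Tgm1, a transglutaminase, rose from 0.191 and 0.449 TPM to at most 5.31 TPM (4.19 ± 0.60, 0.0007), and Tgm3, named after its value was seen, was the lower one, not called when averaged (0.122).

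Transcription factors known to act on keratin genes were higher in 12 of 13 tested cases and lower in 0. Over all genes tested 21.3% were higher and 23.0% lower. The median log2 fold change of the 13 factors was 3.50. With the Dkk1_KO libraries averaged to 1 it was 3.52, against -0.04 over all genes, and fewer of the 13 were called. Elf5 and Cdx2 passed the filter through Dkk1_KO alone, and of the other 11 genes 10 were higher. Among all genes that passed it without Dkk1_KO 18.7% were higher. Elf5, of trophoblast and gland epithelium, was at 0.0468 to 0.203 TPM in control and 157 to 171 TPM in Dkk1_KO, Gata3 at 0.732 to 2.45 and 50 to 74.1 TPM, Tfap2c at 1.87 to 2.27 and 52.3 to 53.5 TPM, and Cdx2 at 0.0398 to 0.202 and 24.6 to 27.2 TPM. Elf5, Gata3, Tfap2c and Cdx2 were named for the highest mean TPM over the 9 libraries. A high level in Dkk1_KO was thus part of their choice. The 1 gene of 13 not called was Trp63, the p63 factor of basal epidermis.

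Markers of other cell types moved in the same libraries, where 21.3% of all genes tested were called higher and 23.0% lower. Of 10 trophoblast markers 9 were higher in Dkk1_KO, 4 of which (Cdx2, Elf5, Esx1 and Hand1) passed the filter through that group alone. Of the other 6 trophoblast markers 5 were higher and 0 lower. Among all genes that passed without Dkk1_KO 18.7% were higher and 24.2% lower. The summed level of the trophoblast list went from 8.95 and 23.7 TPM in control to between 813 and 874 TPM. Hand1 was at 372 to 400 TPM against at most 0.0869 TPM. In control Esx1 was at 0 and in Dkk1_KO no marker of the list was. The trophoblast list shares Elf5, Cdx2, Tfap2c and Gata3 with the keratin-acting factors above, so the counts of these lists are not separate. Of 8 epiblast markers 5 were lower and 2 higher, with a sum of 673 and 871 TPM in control and 125 to 129 TPM in Dkk1_KO. Surface ectoderm markers were higher in 5 of 7 tested cases (sum 26.1 and 31.7 against 352 to 362 TPM, in which Epcam and Cdh1 held most). Krt14 passed the filter through Dkk1_KO alone, and of the other 6 markers 4 were higher. This list shares Krt5 and Krt14 with the keratins, and Trp63, Tfap2a and Grhl3 with the keratin-acting factors. Mesothelial markers were higher in 2 of 3 (sum 4.57 and 8.39 against 20.4 to 20.8 TPM), and endoderm markers higher in 1 and lower in 2 of 6 (39.4 and 44.6 against 23.7 to 27.0 TPM). Feeder fibroblast markers were lower in 7 of 12 and higher in 0, at a sum of 1120 and 1270 TPM in control and 638 to 665 TPM in Dkk1_KO. With the Dkk1_KO libraries averaged to 1 fewer genes of every one of these lists were called, as over all genes. The median log2 fold changes in that fit were 5.07 for trophoblast, -6.76 for epiblast, 3.33 for surface ectoderm and 1.61 for mesothelial markers. They were 0.33 for endoderm and -0.56 for feeder markers, against -0.04 over all genes tested. The part of these cell types in the keratin values was not tested, and in whole cultures a change in the share of cells of a type and a change in RNA per cell cannot be told apart.

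The comparison of IWP2 with control sets a line held in an inhibitor of Wnt secretion against the unmodified line. Line and inhibitor cannot be told apart in it. The simple keratins were lower in value, and 1 of the 5 tested was called. Krt7 fell by 1.65 ± 0.29 on the log2 scale (adjusted p = 0.0292, edgeR), with 17.8 and 10 reads in IWP2 and 25.1 and 44.1 in control. The call was lost in 10 of 16 alternatives (adjusted p from 0.000134 to 0.381), including the omission of control replicate 1 (0.0839) or 2 (0.167), of IWP2 replicate 2 (0.0563), of each Dkk1_KO replicate (0.0751 to 0.0795) or of all Dkk1_KO libraries (0.358), and limma on TPM (0.262). Krt8 (-1.90 ± 0.51, adjusted p = 0.103), Krt19 (-1.40 ± 0.51, 0.213), Krt18 (-0.83 ± 0.46, 0.424) and Krt20 (-0.49 ± 0.43, 0.652) were not called. At an unadjusted p under 0.05 the simple class had 3 lower and 0 higher. All genes were not counted at that unadjusted threshold, so this count has no background. The median of the simple class was -1.40 against 0.01 over all genes. By adjusted p 0.917% of all genes tested were called lower and 1.27% higher, 2.19% in all. DESeq2 also called Krt8, and without IWP2 replicate 1 Krt19 was called too.

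No stratified keratin was called in IWP2 against control by edgeR, with 1 higher (Krt5) and 0 lower at an unadjusted p under 0.05, and DESeq2 called no keratin higher. The unadjusted count has no background over all genes here either. Krt5, the type II keratin of basal epidermis, had 3 and 5 reads in control, 22 and 19 in IWP2, and 24 and 29 in IWP2_removed, at log2 fold changes of 1.97 ± 0.73 (adjusted p = 0.221) and 2.46 ± 0.72 (0.187). Libraries of both groups lay above both control libraries, at levels of 0.329 to 0.590 TPM. Its usual partner Krt14 had 1 read over these 4 libraries.

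Among the related lists IWP2 had Ina (log2 fold change 1.94, adjusted p = 0.0154, edgeR) and Nefl (1.30, 0.0183) higher of 11 other filament genes, both neuronal. Of 13 keratin-acting factors Ehf was higher (2.24, 0.0492) and Grhl2 (-2.15, 0.0265) and Klf5 (-1.18, 0.0362), both epithelial factors, were lower. No desmosomal or cytolinker gene of 15 was called, at a median of -0.79. Over all genes tested in this comparison 1.27% were called higher and 0.917% lower. Apart from Ina these genes were named because they were called. Of the cell type markers Krt7, Gata4 and Wt1 were lower in IWP2 and none was higher. Of the genes called in these lists only Krt7 was followed under the alternatives in this comparison. Without the Dkk1_KO libraries 12 of all genes were called in place of 396. The summed trophoblast markers were at 7.58 and 16.3 TPM, those of epiblast at 584 and 1200 TPM and those of feeder fibroblasts at 630 and 1210 TPM, each range overlapping control. Endoderm markers summed to 7.39 and 33.1 TPM, surface ectoderm markers to 20.5 and 20.9 TPM and mesothelial markers to 3.13 and 4.23 TPM, each below both control libraries, and in IWP2 Esx1 alone of the trophoblast list was at 0. The part of these cell types in the keratin values was not tested.

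In IWP2_removed no keratin was called against control, where 0.669% of all genes were higher and 0.586% lower, 1.25% in all. By edgeR 2 (Krt5 and Krt15) were higher and 0 lower at an unadjusted p under 0.05, and DESeq2 called 0. All genes were not counted at that unadjusted threshold. Krt7 (0.05 ± 0.25, adjusted p = 0.988), Krt8 (-0.80 ± 0.49, 0.615), Krt18 (-0.69 ± 0.46, 0.658) and Krt19 (-1.13 ± 0.50, 0.43) did not pass. Krt15, a type I keratin of basal epidermis and hair bulge, had 3 and 8 reads in control, 12 and 11 in IWP2, and 27 and 21 in IWP2_removed (1.89 ± 0.52, 0.159). The desmosomal cadherin Dsg2, named because it was called, was lower (-1.44, adjusted p = 0.0166, edgeR), and Ehf was higher (2.46, 0.0474). Neither was followed under the alternatives in this comparison. Without the Dkk1_KO libraries 1 of all genes was called in place of 227. Summed endoderm markers (16.3 and 26.9 TPM) and surface ectoderm markers (20.0 and 25.4 TPM) lay below both control libraries here as well, and their part was not tested.

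Set directly against IWP2, IWP2_removed had 0 keratins called by edgeR, while 0.0387% of all genes were called higher and 0.0221% lower, 0.0608% in all. At an unadjusted p under 0.05, 2 keratins (Krt7 and Krt15) were higher and 0 lower. All genes were not counted at that unadjusted threshold, so this count has no background. Krt7 lay at 35.0 and 49.4 reads against 17.8 and 10 in IWP2, without overlap (1.70 ± 0.28, adjusted p = 0.0822), and was called by DESeq2 (0.000533) and without IWP2 replicate 1 (0.0295). Krt8 differed by 1.09 ± 0.50 (0.549), Krt18 by 0.14 ± 0.46 (0.994) and Krt15 by 1.17 ± 0.48 (0.476). The comparisons of IWP2 and IWP2_removed with control share the control libraries.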

How the data were processed

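RNA sequencing tables (TruSeq stranded mRNA, per the labels' protocols) of 9 libraries were used. The authors deposited estimated counts and TPM per transcript, made with Salmon, which the submitters' processing notes name beside DESeq2 and edgeR, without versions. The transcriptome build and strand setting are not given in the sources used here. In each library 133399 of 133618 transcripts were matched to GENCODE vM21 genes (GRCm38), and the other 219 held 0.117% to 0.161% of the reads.

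Counts per gene, the rounded sum over its transcripts, from all 9 libraries entered 1 edgeR 4.0.16 quasi-likelihood model (R 4.3.3, group means, TMM, filterByExpr, common dispersion 0.0524), tested on simulated data. Alternatives were DESeq2 1.42.0 (test or size factors), limma 3.58.1 on log2(TPM + 1), no filter, a replicate block, Dkk1_KO averaged or left out, each library left out, and, added after seeing the data, protein-coding transcripts alone, the Krt13 read left out, other lists with Dkk1_KO averaged, and counts over genes that pass the filter without Dkk1_KO. Intervals and floors take in counting error alone, as reads may be PCR copies. Near-identical transcripts were found with blastn 2.17.0.

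Named genes were Dkk1, keratins with a group mean of at least 1 TPM and further keratins called. From each other list they were the 4 members with the highest mean TPM over the 9 libraries. A gene high in Dkk1_KO could thus be named through that group. Members and lists were chosen with earlier results of these data known.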

Additional observations from a re-analysis of the deposited data

How the results depend on the processing

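Under 16 alternatives per comparison no call turned into a call of the opposite direction, and of 746 values of single keratins 694 kept their sign and side of the threshold, 23 lost and 11 gained a call, and 18, none of them called, changed sign. The number of keratins higher in Dkk1_KO was 8, and 5 with Dkk1_KO averaged to 1 (6 to 10 without 1 library); the number lower was 2, but 0 when averaged, 1 on protein-coding reads and 1 to 2 without 1 library. All genes called there fell from 8018 to 2724 when averaged (6143 to 9692 without 1 library). Lower keratins in IWP2 against control, 1 in all, became 4 without a filter and 2 by DESeq2, and 0 by limma, on protein-coding reads and without the Dkk1_KO libraries (0 to 2 without 1 library). In IWP2_removed against control, without a filter, 1 keratin was higher (Krt5) and 1 lower (Krt19), against 0 and 0. In IWP2_removed against IWP2 2 were higher without a filter and 1 by DESeq2, against 0 (0 to 1 without 1 library). Over all genes the counts for IWP2 against control, IWP2_removed against control and IWP2_removed against IWP2 were 396, 227 and 11, without a filter 1220, 732 and 414, by DESeq2 1056, 663 and 388, by limma 219, 104 and 5, on protein-coding reads 233, 97 and 5, without the Dkk1_KO libraries 12, 1 and 1, and without 1 library 70 to 2432, 14 to 738 and 0 to 454. The cause of these shifts was not tested. In Dkk1_KO the simple share of 99.5% was 99.6% on reads and 99.6% on protein-coding transcripts, and the summed keratin level was 890 in place of 951 TPM on protein-coding transcripts.

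The labels do not say whether libraries of the same replicate number share an origin. Same-numbered deviations correlated positively, at 0.334 to 0.5, among control, IWP2 and IWP2_removed, and at -0.056 to -0.018 with Dkk1_KO. Between groups of 2 libraries both replicate numbers give the same value, so each such pair of groups has 1 correlation. The main model held group alone, without a replicate term. With a replicate block the keratins called were 7 higher and 2 lower in Dkk1_KO, 0 lower in IWP2 (Krt7 at an adjusted p of 0.0525) and 0 in both other comparisons, and 7340, 345, 135 and 2 genes were called over all genes.

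The sign changes among values not called were on protein-coding reads Krt15 in Dkk1_KO (0.04), Krt79 in IWP2 (-0.89) and Krt7 in IWP2_removed against control (-0.24), and with limma Krt79 in IWP2 (-0.09) and Krt1 in IWP2_removed against control (-0.08). Without 1 library the range was -0.42 to 0.53 for Krt15 in Dkk1_KO, -0.34 to 0.78 for Krt79 in IWP2, and, in IWP2_removed against control, -0.24 to 0.29 for Krt7, -1.45 to 0.11 for Krt8, -1.47 to 0.13 for Krt18, -0.13 to 0.78 for Krt20 and -3.29 to 0.66 for Krt87. Against IWP2 it was -0.63 to 0.63 for Krt18, -0.28 to 1.21 for Krt19 and -1.09 to 0.09 for Krt1. Depth limits the members with few reads, and 35 of 49 could not be tested.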
